A study of Homo sapiens with 2 samples.

Results

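The miR-29 family was followed in small RNA sequencing libraries of MDA-MB-231, a long-established line of human breast cancer cells of the triple-negative type. Its members were chosen by name from the deposited table of counts per mature microRNA. They were the 3p and 5p arms of the 4 miR-29 hairpins, 7 mature microRNAs of the 2656 in the table, and all 7 were found. The cells of 1 library had been transduced with an shRNA against ELOVL5, a fatty acid elongase (shELOVL5), and those of the other with the control shRNA named shLuc. Both libraries therefore came from transduced cells of the same line carrying an shRNA, and how the transduced cells were selected is not given in the sources used here. Since each condition has a single library, the variation between cultures is unknown, no p-value is given and every ratio describes these 2 libraries.

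MicroRNAs are cut from hairpins, and 1 of the 2 arms is usually kept as the guide while the other, the passenger, is mostly degraded. For miR-29 the 3p arms are the known guides. They repress collagens, elastin, fibrillin and other matrix genes, as well as the DNA methyltransferases DNMT3A and DNMT3B and the survival gene MCL1, and their loss is a known feature of fibrosis. In breast cancer cells the family is known for restraining matrix and metastasis genes.

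The sequences are shown because the family is defined by a shared seed, the stretch that pairs with targets, and because its members are so alike that reads can be hard to assign. They are RefSeq sequences on GRCh38.p14, 5′ to 3′, with bases 2 to 8 (the seed) in capitals, and all 7 members were matched by name.
hsa-miR-29a-3p: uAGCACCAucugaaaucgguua
hsa-miR-29b-3p: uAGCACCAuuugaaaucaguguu
hsa-miR-29c-3p: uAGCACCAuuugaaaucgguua
hsa-miR-29a-5p: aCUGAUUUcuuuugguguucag
hsa-miR-29b-1-5p: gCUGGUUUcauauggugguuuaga
hsa-miR-29b-2-5p: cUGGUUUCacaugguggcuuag
hsa-miR-29c-5p: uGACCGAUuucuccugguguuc
The 3 guides shared the seed AGCACCA, and no other of the 2370 mature microRNA names in the sequence table had it. The 4 passengers had 4 different seeds, each found in no other name of the table. The guides hsa-miR-29a-3p and hsa-miR-29c-3p differed at 1 of 22 bases, C10U, counted from the 5′ end with the base of hsa-miR-29a-3p first. The guides hsa-miR-29a-3p and hsa-miR-29b-3p differed at 4 of the 22 bases compared, at C10U, G18A, U21G and A22U, and hsa-miR-29b-3p was 1 base longer. Written with the bases that differ from hsa-miR-29a-3p, or extend past it, in capitals, both read as follows.
hsa-miR-29b-3p: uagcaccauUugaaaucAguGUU
hsa-miR-29c-3p: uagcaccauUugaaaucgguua

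The hairpins lie in clusters on 2 chromosomes, all on the minus strand. MIR29A is at chromosome 7, 130876747 to 130876810, and MIR29B1 at chromosome 7, 130877459 to 130877539, with 648 bases between them. MIR29C is at chromosome 1, 207801852 to 207801939, and MIR29B2 at chromosome 1, 207802443 to 207802523, with 503 bases between them. In GENCODE release 29, MIR29C and MIR29B2 lie whole within exon 5 of the MIR29B2CHG-203 transcript of the long noncoding RNA MIR29B2CHG. MIR29B1 lies whole within exon 4 of the LINC-PINT-202 transcript of LINC-PINT, and MIR29A overlaps the end of the same exon by 2 bases. The chromosome 7 hairpins also lie in introns of AC016831.6 on their own strand and of LINC00513 on the opposite strand. The mature hsa-miR-29b-3p has the same sequence from MIR29B1 and MIR29B2, and the deposited table gave it identical counts under both, so its reads cannot be assigned to a locus. The passenger arms differ, so hsa-miR-29b-1-5p and hsa-miR-29b-2-5p are counted apart.

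The shELOVL5 library held 6811811 microRNA counts and the shLuc library 7109272, after 1 value was kept per mature microRNA. Counts were scaled to counts per 1000000 (CPM) with TMM factors, which correct for differences in composition. The intervals given with levels, ratios and shares are exact 95% intervals that cover counting error only, since each condition has 1 library. No molecular identifiers are described in the labels, so PCR copies may be counted as separate molecules and the intervals may be too narrow. Markers known to be high in MDA-MB-231 were high, with hsa-miR-222-3p, hsa-miR-100-5p and hsa-miR-221-3p together at 289845 CPM in shELOVL5 and 328014 CPM in shLuc. Those known to be low, the epithelial hsa-miR-200c-3p, hsa-miR-141-3p and hsa-miR-205-5p, were far below, together at 66.7 and 67.2 CPM. Nearly all of this was hsa-miR-200c-3p, at 65.2 and 66.5 CPM. Of its relatives outside this list, hsa-miR-200b-3p was at 236 CPM in shELOVL5 and 180 in shLuc, hsa-miR-200a-3p at 68.3 and 40.0, and hsa-miR-429 at 16.5 and 10.4. The labels' extraction text speaks of frozen tumor material while the other labels describe the cell line. The 5 markers of fibroblasts and smooth muscle, cells rich in matrix genes, summed to 63 counts in each library. The 4 markers of liver, muscle and neurons summed to 69 counts in shELOVL5 and 135 in shLuc. Their difference lay in the muscle marker hsa-miR-1-3p, with 14 counts in shELOVL5 and 80 in shLuc, a ratio of 0.178 (0.0932 to 0.317). The liver marker hsa-miR-122-5p had 53 and 55 counts. Of the 7 blood cell markers, hsa-miR-486-5p gave 2146 of 2282 counts in shELOVL5 and 2788 of 2798 in shLuc, and hsa-miR-223-3p and hsa-miR-144-3p were at 0 in both. The ratio of hsa-miR-486-5p was 0.784 (0.740 to 0.829), while the rare hsa-miR-142-5p (84 counts in shELOVL5, 6 in shLuc) and hsa-miR-142-3p (45 and 2) stood at 14.3 (6.28 to 39.9) and 22.9 (5.98 to 195). The markers of this list thus lay on both sides of 1. The part of such cells in the miR-29 values was not tested. The ELOVL5 mRNA is not measured by a microRNA table, so the knockdown was not analysed here.

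The guide arms of miR-29 were more abundant in shELOVL5. Their summed counts were 91637 in shELOVL5 and 72590 in shLuc, or 13286 and 10338 CPM, a ratio of 1.29 (1.27 to 1.30). The 3 guides together took 1.35% of all microRNA counts in shELOVL5 and 1.02% in shLuc. More of these molecules per cell and more cells carrying them cannot be told apart in bulk RNA. The sum is nearly hsa-miR-29a-3p alone, which made up 98.3% (98.2 to 98.4%) of the guide counts in shELOVL5 and 98.4% (98.3 to 98.5%) in shLuc.

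hsa-miR-29a-3p, the abundant guide of the family, had 90085 counts in shELOVL5 and 71451 in shLuc, which is 13061 and 10176 CPM. It was the 16th most abundant microRNA in shELOVL5 and the 18th in shLuc, and its ratio was 1.28 (1.27 to 1.30). hsa-miR-29b-3p, the guide made from both clusters, had 1350 counts in shELOVL5 and 958 in shLuc, or 196 and 136 CPM. Its ratio of 1.43 (1.32 to 1.56) was the highest of the 7 members. hsa-miR-29c-3p, the guide of MIR29C, had 202 counts in shELOVL5 and 181 in shLuc, or 29.3 and 25.8 CPM. Its ratio of 1.14 had an interval that includes 1 (0.925 to 1.40), so a difference was not detectable at this depth. Of the guide counts, hsa-miR-29c-3p made up 0.220% in shELOVL5 and 0.249% in shLuc, and hsa-miR-29b-3p made up 1.47% and 1.32%. For every 100 counts of hsa-miR-29a-3p there were 0.224 counts of hsa-miR-29c-3p in shELOVL5 and 0.253 in shLuc. These guides differ at the single base C10U, and whether misread or mismatched copies of the abundant hsa-miR-29a-3p entered the count of hsa-miR-29c-3p was not tested.

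**Figure D1:**
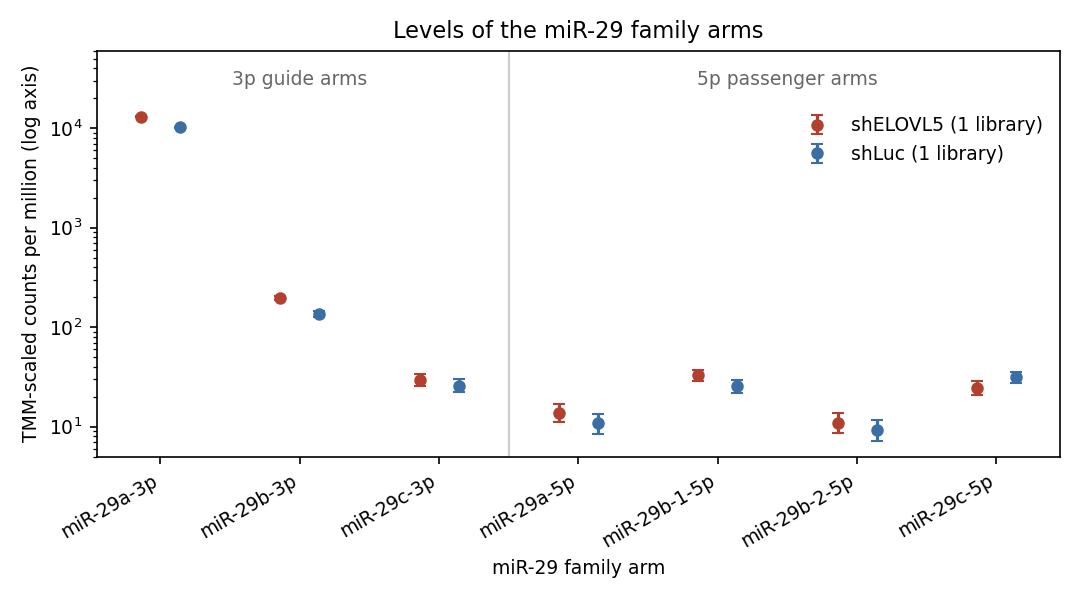
Level of each miR-29 arm in TMM-scaled CPM on a log axis, in shELOVL5 (red, left) and shLuc (blue, right), 1 library each, with exact Poisson 95% intervals that cover counting error only. The level of hsa-miR-29a-3p, 13061 and 10176 CPM, is far above every other arm, and hsa-miR-29c-5p is the arm with the lower level in shELOVL5.

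The passenger arms were rare, and their sum differed between the libraries by less than counting error. The summed counts were 566 in shELOVL5 and 538 in shLuc, a ratio of 1.07 (0.950 to 1.21). hsa-miR-29a-5p, from MIR29A, had 95 counts in shELOVL5 and 76 in shLuc, a ratio of 1.27 (0.931 to 1.74). hsa-miR-29b-1-5p, which reports on MIR29B1 alone, was counted 227 times in shELOVL5 and 178 times in shLuc, at a ratio of 1.30 (1.06 to 1.59). hsa-miR-29b-2-5p, which reports on MIR29B2 alone, was counted 75 times in shELOVL5 and 65 times in shLuc, at a ratio of 1.17 (0.831 to 1.66). Of these 3 arms, the interval lay above 1 for hsa-miR-29b-1-5p and included 1 for the others. hsa-miR-29c-5p, the 5p arm of MIR29C, went the other way, with 169 counts in shELOVL5 and 219 in shLuc, or 24.5 and 31.2 CPM. Its ratio was 0.786 (0.639 to 0.965), and it was the 1 member of the 7 with a ratio below 1.

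In shELOVL5 the arms below hsa-miR-29b-3p ran, from high to low CPM, hsa-miR-29b-1-5p (32.9), hsa-miR-29c-3p (29.3), hsa-miR-29c-5p (24.5), hsa-miR-29a-5p (13.8) and hsa-miR-29b-2-5p (10.9). In shLuc the order was hsa-miR-29c-5p (31.2), hsa-miR-29c-3p (25.8), hsa-miR-29b-1-5p (25.4), hsa-miR-29a-5p (10.8) and hsa-miR-29b-2-5p (9.26). Neighbours in these orders had overlapping counting intervals, except hsa-miR-29c-5p and hsa-miR-29a-5p in shELOVL5 and hsa-miR-29b-1-5p and hsa-miR-29a-5p in shLuc. Each read comes from 1 short RNA, so these levels need no scaling by length, though PCR copies may be counted among the reads. Adapters are also known to join some small RNAs better than others, and levels of different microRNAs compare only roughly.

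The members were then read against all microRNAs. All 7 had a mean of at least 10 CPM over both libraries and at least 100 counts in total, as did 313 microRNAs. Of the 7, 4 had a level at least 25% higher in shELOVL5 and 1 a level at least 20% lower (the same fold, downwards), against 49 (15.7%) and 31 (9.9%) of the 313. The count of 1 lower became 0 when libraries were scaled by their total counts. Adding 5 CPM to each value left 2 members past the higher limit in place of 4. None of the 7 reached 2-fold in either direction, against 1.6% higher and 0% lower of the 313. The counting interval lay above 1 for 3 members and below 1 for 1, against 30% and 29.4% of the 313. With intervals widened for 7 members, those of hsa-miR-29a-3p and hsa-miR-29b-3p still lay above 1. Those of hsa-miR-29b-1-5p (0.988 to 1.71) and hsa-miR-29c-5p (0.592 to 1.04) then included 1. The median log2 ratio of the 7 was 0.35, beside -0.024 for the 313, as a description of arms that share hairpins and are not independent. These background shares mix microRNAs of very different depth, so the abundant and the rare members were also set against their own ranges.

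The members with a mean of at least 50 CPM were hsa-miR-29a-3p and hsa-miR-29b-3p, and both were at least 25% higher in shELOVL5, as were 19 (9.95%) of the 191 microRNAs with a mean of at least 50 CPM. Another 19 (9.95%) of the 191 were at least 20% lower. Scaled by total counts, 29 of the 191 were higher and 13 lower, and with DESeq2 size factors 18 and 25. Of the 191, 15 had a higher ratio than hsa-miR-29a-3p and 8 a higher ratio than hsa-miR-29b-3p. The 5 members between 10 and 50 CPM included 2 that were at least 25% higher, hsa-miR-29a-5p and hsa-miR-29b-1-5p, among 122 microRNAs of which 24.6% were. They included 1 that was at least 20% lower, hsa-miR-29c-5p, against 9.84%. At this depth ratios spread widely, from 0.862 to 1.24 between the quartiles, and counts of 1 or 2 among 5 members are close to these background shares. For hsa-miR-29c-5p, 8 of the 122 had a lower ratio.

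**Figure D2:**
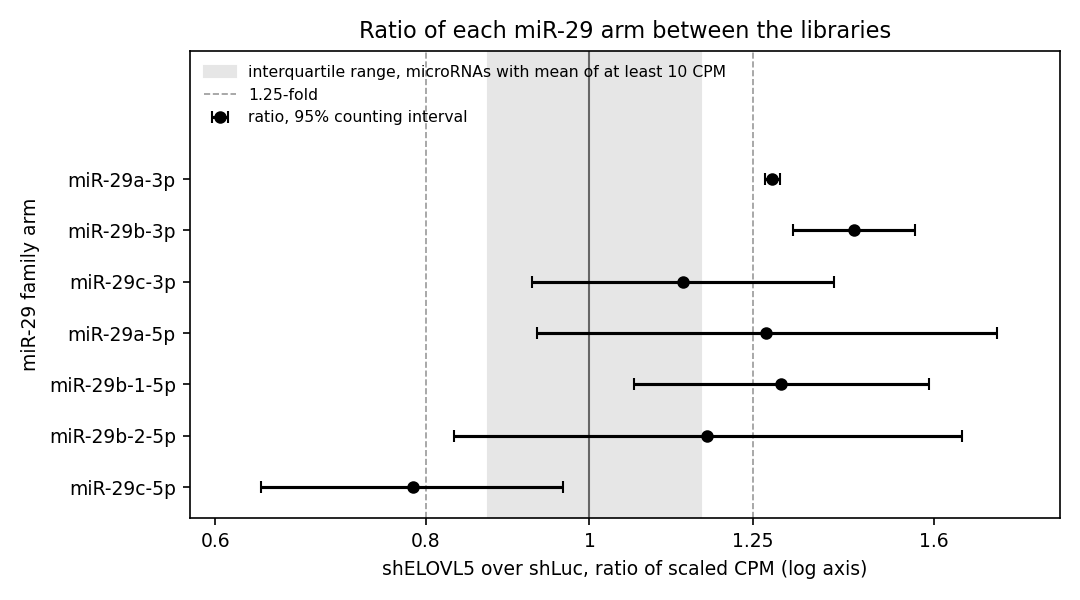
Ratio of scaled CPM, shELOVL5 over shLuc, for each miR-29 arm on a log axis, with exact 95% counting intervals. The grey band is the interquartile range of the 313 microRNAs with a mean of at least 10 CPM (0.871 to 1.16). The intervals of hsa-miR-29a-3p, hsa-miR-29b-3p and hsa-miR-29b-1-5p lie above 1 and that of hsa-miR-29c-5p below 1.

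**Figure D3:**
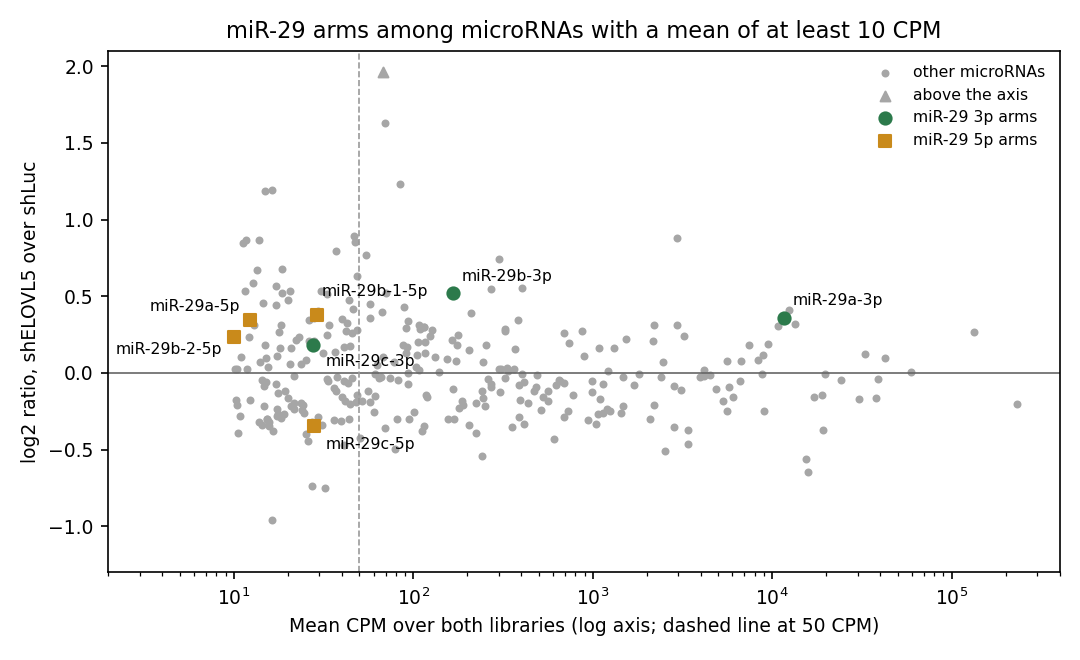
Log2 ratio (shELOVL5 over shLuc) against mean CPM on a log axis for the 313 microRNAs that averaged at least 10 CPM. The miR-29 3p arms are green circles, the 5p arms orange squares and other microRNAs grey, and the triangle marks hsa-miR-504-5p, whose log2 ratio of 7.06 is beyond the axis. The members lie between -0.35 and 0.52.

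Whether the members differed among themselves was described by the ratio of 2 members' ratios, which does not depend on library scaling. Of 21 pairs, 7 had a 95% interval that excluded 1, and 5 of these 7 held hsa-miR-29c-5p. Pairs of other microRNAs were not counted in this way, so whether 7 of 21 is unusual is not known. Relative to hsa-miR-29a-3p, hsa-miR-29c-5p stood at 0.612 (0.498 to 0.752). Relative to hsa-miR-29b-3p it was 0.548 (0.438 to 0.684), and relative to hsa-miR-29b-1-5p at 0.606 (0.452 to 0.809). These 3 pairs also excluded 1 when the intervals were widened for 21 pairs, and no other pair did. For the 2 most abundant guides, hsa-miR-29b-3p over hsa-miR-29a-3p gave 1.12 (1.03 to 1.22), and its widened interval of 0.982 to 1.27 includes 1. For the arms of MIR29A, hsa-miR-29a-5p over hsa-miR-29a-3p, the value was 0.991 (0.725 to 1.36).

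The passenger arms were summed by cluster, since each is made at a single locus. On chromosome 7, hsa-miR-29a-5p and hsa-miR-29b-1-5p had 322 counts in shELOVL5 and 254 in shLuc, a ratio of 1.29 (1.09 to 1.53). On chromosome 1, hsa-miR-29b-2-5p and hsa-miR-29c-5p summed to 244 counts in shELOVL5 and 284 in shLuc, a ratio of 0.875 (0.734 to 1.04). The chromosome 1 ratio relative to that of chromosome 7 was 0.678 (0.531 to 0.865). Within chromosome 1 the passenger arms stood on opposite sides of 1, with hsa-miR-29b-2-5p at 1.17 and hsa-miR-29c-5p at 0.786, so the lower sum rests on hsa-miR-29c-5p. The guides hsa-miR-29a-3p of chromosome 7 and hsa-miR-29c-3p of chromosome 1 are also made at a single locus each. They are not in these sums, and their ratios were 1.28 (1.27 to 1.30) and 1.14 (0.925 to 1.40). Relative to hsa-miR-29a-3p, hsa-miR-29c-3p stood at 0.885 (0.720 to 1.09), an interval that includes 1.

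The balance of arms was then compared within each hairpin, where library scaling also cancels. The hairpins MIR29A and MIR29C are shown because they mark the extremes, with the mature arms in capitals (RefSeq, GRCh38.p14, minus strand, 5′ to 3′).
MIR29A: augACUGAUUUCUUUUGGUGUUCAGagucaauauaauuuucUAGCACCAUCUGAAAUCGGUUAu
MIR29C: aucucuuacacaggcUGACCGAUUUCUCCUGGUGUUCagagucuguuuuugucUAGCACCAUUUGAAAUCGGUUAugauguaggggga
In MIR29A the 5p arm took 0.105% of the hairpin's counts in shELOVL5 (0.0852 to 0.129%) and 0.106% in shLuc (0.0837 to 0.133%). In MIR29B1 it took 14.4% in shELOVL5 (12.7 to 16.2%) and 15.7% in shLuc (13.6 to 17.9%). In MIR29B2 it took 5.26% in shELOVL5 (4.16 to 6.55%) and 6.35% in shLuc (4.94 to 8.03%). The shares of these 3 hairpins differed between the libraries by less than counting error. For the last pair of hairpins the whole count of hsa-miR-29b-3p was used for each, so each share is a lower limit.

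In MIR29C the counts of the arms were nearly even, and the 5p arm cannot be called a minor product there. This balance takes the count of hsa-miR-29c-3p as deposited, and whether copies of hsa-miR-29a-3p entered it was not tested. The 5p arm took 45.6% of the hairpin's counts in shELOVL5 (40.4 to 50.8%) and 54.8% in shLuc (49.7 to 59.7%). By these counts the 3p arm was the more abundant in shELOVL5 and the 5p arm in shLuc. Both intervals include an even balance, so neither library settles which arm was the more abundant. The odds of the 5p arm were 0.692 (0.515 to 0.928) of those in shLuc. The background was 190 hairpins with at least 100 counts and both arms seen in both libraries. Their median share of the rarer arm was 3.91% in shELOVL5 and 3.80% in shLuc. MIR29C stood nearest to even by the mean of its 2 shares, since these lie on opposite sides of an even balance. Within each library it was not the most even. In the hairpin of miR-574 the 5p arm took 46.3% in shELOVL5 and 47.9% in shLuc. By counts, the more abundant arm differed between the libraries in 2 of the 190 (1.05%). These were MIR29C and the hairpin of miR-3605, named after its values were seen. Among hairpins with at least 1000 counts, which leave out MIR29C, it differed in 0. The size of the MIR29C shift was not unusual. A shift at least as large was seen in 58 of the 190 hairpins, most of them with rarer minor arms, and in 15 of the 100 hairpins whose minor arm had at least 100 counts. The interval of the shift excluded 1 in 28.9% of the 190 and in 45% of the 100.

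**Figure D4:**
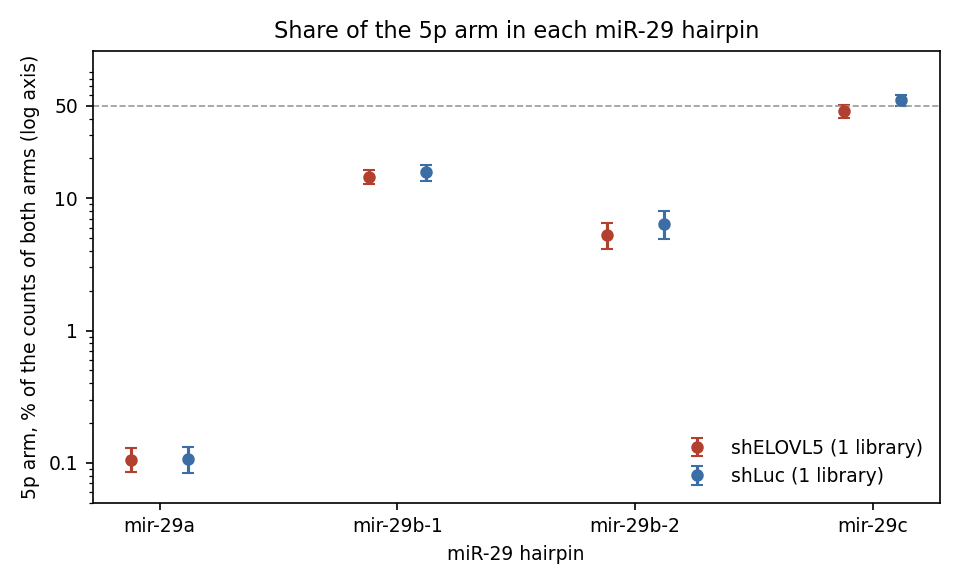
Share of the 5p arm in the counts of both arms of each miR-29 hairpin, in percent on a log axis, in shELOVL5 (red, left) and shLuc (blue, right), 1 library each, with exact binomial 95% intervals. The dashed line marks an even balance. Shares run from 0.105% and 0.106% in mir-29a to 45.6% and 54.8% in mir-29c.

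With 2 libraries, likeness to a member can be described only by nearness in level or in ratio. The 4 microRNAs nearest to hsa-miR-29a-3p in mean CPM were hsa-miR-92a-3p at a ratio of 1.33, hsa-miR-27a-3p at 1.24, hsa-miR-125b-5p at 1.24 and hsa-miR-103a-3p at 1.14. All 4 of these microRNAs of like abundance had intervals above 1 and were thus also higher in shELOVL5, beside 1.28 for hsa-miR-29a-3p. The 4 nearest in ratio were hsa-miR-19b-3p at 1.28, hsa-miR-584-5p at 1.27, hsa-miR-877-5p at 1.27 and hsa-miR-200b-3p at 1.31. The 4 nearest to hsa-miR-29b-3p in mean CPM were hsa-miR-339-3p at 0.929 (0.855 to 1.01), hsa-miR-139-5p at 1.16 (1.07 to 1.26), hsa-miR-421 at 0.812 (0.748 to 0.881) and hsa-miR-22-5p at 1.06 (0.973 to 1.14). These stood on both sides of 1, beside 1.43 for hsa-miR-29b-3p. The 4 nearest to it in ratio were hsa-miR-135b-5p at 1.43, hsa-miR-218-5p at 1.46, hsa-miR-210-3p at 1.47 and hsa-miR-18a-3p at 1.37.

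Other microRNAs known to act on fibrosis and matrix genes gave the family its context. Of 12 known to restrain fibrosis, 8 had a mean of at least 50 CPM, and of these 2 were at least 25% higher in shELOVL5, 0 were at least 20% lower and 6 lay between, beside 9.95% in each direction among the 191. The 2 were hsa-miR-200a-3p at 1.71 (1.47 to 1.99) and hsa-miR-200b-3p at 1.31 (1.22 to 1.41), which repress the ZEB factors of epithelial-mesenchymal transition. The 3 most abundant of this list were hsa-miR-26a-5p at 0.891 (0.885 to 0.896), hsa-miR-30a-5p at 0.970 (0.963 to 0.977) and hsa-miR-30c-5p at 0.994 (0.983 to 1.01), and the miR-30 family is known to repress the matrix regulator CTGF. The list's median log2 ratio was -0.012, beside -0.033 for the 191 microRNAs, and it was 0.024 when scaled by total counts. Of 10 known to promote fibrosis, 2 were expressed at this limit and neither passed these limits, hsa-miR-21-5p at 1.21 (1.20 to 1.21) and hsa-miR-192-5p at 0.938 (0.894 to 0.984), with a median log2 ratio of 0.088.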

How the data were processed

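The authors deposited raw counts of reads, without normalization, for each precursor and its mature arms in 1 shELOVL5 and 1 shLuc library. Per the labels' protocols, total RNA went into a NEBNext small RNA kit and onto an Illumina NextSeq. The submitters' processing notes list FastQC 0.11.9, cutadapt 2.10 and Bowtie 1.1.1. For settings, the counting program, the mismatch limit and the annotation release, the sources used here give nothing.

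Its 2886 lines covered 2656 mature microRNAs. Where a microRNA had several precursor lines, the highest count per library was kept. Library sizes were scaled with TMM factors of 1.01 for shELOVL5 and 0.988 for shLuc (edgeR 4.0.16, R 4.3.3). Ratios carry exact Clopper-Pearson intervals, CPM exact Poisson intervals, and ratios of ratios exact conditional intervals (scipy 1.17.1). The smallest level that a count of 0 excludes is 3 counts, which is 0.435 CPM in the shELOVL5 library and 0.427 CPM in the shLuc library. The scripts were tested on simulated counts. Sequences and positions are from RefSeq on GRCh38.p14 and overlaps from GENCODE release 29; the table itself gives no coordinates.

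The members, lists and rules were chosen with earlier results of these data known. All 7 members are named. Of each fibrosis list, the 3 most abundant with a mean of at least 50 CPM and 100 counts are named, plus any at least 25% higher or 20% lower, and for the 2 abundant guides the 4 nearest microRNAs in mean CPM and in log2 ratio. Alternatives were other scalings (DESeq2 1.42.0 among them), filters, 5 CPM added, and sums over precursor lines.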

Additional observations from a re-analysis of the deposited data

How the results depend on the processing

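No paired analysis was possible because shELOVL5 and shLuc have a single library each, which also leaves no library to drop. Ratios of ratios and arm shares do not depend on library scaling. The DESeq2 size factors were 1 for both libraries, so that setting left the counts unscaled. Total count scaling moved every log2 ratio by 0.036, DESeq2 size factors by -0.026, and total counts without the 2 most abundant microRNAs by 0.039. The ratio of the guide sum was 1.32, 1.26 and 1.32 under these scalings, as was that of hsa-miR-29a-3p, and 1.39 for the guides other than hsa-miR-29a-3p. The 1 member at least 20% lower became 0 under total counts, with or without the 2 most abundant, since hsa-miR-29c-5p lies near that limit. With 5 CPM added to both values the members at least 25% higher were 2 and those lower 0, by construction a setting that pulls rare arms towards 1. Of all microRNAs at a mean of at least 50 CPM, the 19 that were at least 25% higher became 29 under total counts, with or without the 2 most abundant, while the 19 at least 20% lower became 13. With DESeq2 these were 18 and 25. When the whole interval had to pass, 12 were higher and 10 lower. With a mean of at least 10 CPM, 49 were at least 25% higher and 31 at least 20% lower, and 5 were 2-fold higher. With at least 1000 CPM these were 3, 8 and 0. Requiring merely 1 count per library, 298 were at least 25% higher and 255 at least 20% lower, and 120 were 2-fold higher and 77 2-fold lower. The median log2 ratio of the fibrosis-restraining list was -0.037 with DESeq2, and it turned from -0.012 to 0.024 under total counts, 0.027 without the 2 most abundant and 0.043 with no filter. That of the fibrosis-promoting list was 0.13 without the 2 most abundant. With at least 1000 CPM it was 0.27, which is the value of hsa-miR-21-5p alone. With no filter it was 0.026, which is the value of rare members with equal counts in both libraries, such as hsa-miR-199a-5p at 15 in each. Summing precursor lines counts hsa-miR-29b-3p once for each hairpin, and the 5p share then became 7.76% in shELOVL5 and 8.50% in shLuc for MIR29B1, and 2.70% and 3.28% for MIR29B2. No ratio changed direction where its interval excluded 1. Depth limits the 5 arms below 50 CPM, and the lack of replicates limits every ratio.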

Other observations

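hsa-miR-29b-3p alone among the 7 members holds the hexamer AGUGUU, described in human cells as a signal for nuclear import. In capitals at its 3′ end, the guide reads as follows (RefSeq, GRCh38.p14, the same from both loci).
hsa-miR-29b-3p: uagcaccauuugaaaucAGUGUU
The hexamer was searched as these letters on the RNA strand and was found in 13 of the 2370 mature names of the sequence table (0.549%), and at the 3′ end of 2 (0.0844%). The other name that ends in it, hsa-miR-519e-3p, was at 0 counts in both. That count allows a level of up to 0.435 CPM in the shELOVL5 library and of up to 0.427 CPM in the shLuc library. With 1350 counts in shELOVL5 and 958 in shLuc, hsa-miR-29b-3p was the most abundant of the 13 in both libraries. The next in shELOVL5 was hsa-miR-142-3p, with 45 counts there and 2 in shLuc. The next in shLuc was hsa-miR-199a-5p, with 15 counts in each library. Both carry the hexamer inside their sequence. A match describes letters only, and these libraries of whole-cell RNA do not show where in the cell a microRNA was.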
